A study of Homo sapiens with 15 samples.

Results

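The genes described here are 121 protein-coding genes whose RNA was higher in senescent than in cycling HT-1080 cells and lower again after 24 h of GNF-7, among 60670 genes in the count table. HT-1080 is a human fibrosarcoma line, and GNF-7 is a small molecule kinase inhibitor that was given to senescent cells only. Senescence was induced by 6 days of expression of a dominant negative form of TRF2, a protein that caps telomeres. The 15 RNA-seq libraries form 5 groups of 3. They are cycling cells with the solvent DMSO for 6 h, senescent cells with DMSO for 6 h, senescent cells with 1 uM GNF-7 for 6 h, senescent cells with DMSO for 24 h and senescent cells with 1 uM GNF-7 for 24 h. All come from 1 cell line, and cycling cells have no 24 h or GNF-7 group. The labels call the replicates biological but do not state whether they were separate cultures. The p-values measure the spread between these samples, which may be technical if they were not.

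The members were chosen by measured values, as CPM, the count of a gene per 1000000 counts of its library. A gene had to have a mean of at least 5 CPM in the senescent DMSO 24 h group and at least 1.5 times the cycling mean. The cycling cells had DMSO for 6 h, so this rise also spans a difference in time. Its GNF-7 24 h mean had to be at most 0.6 of the DMSO 24 h mean, with all 3 GNF-7 libraries under all 3 DMSO libraries. Of 19902 coding genes, 10377 passed the level, 1605 of these passed the rise and 126 of these passed the decrease and the separation of the libraries. VCAN, MMP16, IGFBP6, CCL2 and COL1A1 were left out by name, as other collagens, matrix metalloproteases, chemokines, IGF binding proteins, LRRC17, FOS and TERF2 would have been. The other 1484 senescence-raised coding genes serve below as a comparison. Values in the cycling, DMSO 24 h and GNF-7 24 h libraries are therefore given as a description with no test. Just inside the limit of 0.6 lay IFI6 with a ratio of 0.5988, and just outside lay XYLT2 with 0.6004. Just inside the limit of 1.5 lay ARID5B with a ratio of 1.5001, and just outside lay DIPK1A with 1.4999. The 6 libraries of the 6 h GNF-7 and DMSO groups took no part in the choice, and the tests below are on these.

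Senescent cells stop dividing but stay active in secretion. They release a mixture of matrix proteins, proteases and their inhibitors, growth factors and cytokines, known as the senescence-associated secretory phenotype. Transforming growth factor beta (TGF-beta) ligands signal through a pair of serine/threonine kinase receptors to SMAD transcription factors and raise genes of the matrix and of adhesion. Proteins of the matrix and the cell surface pass through the Golgi, where glycosyltransferases, sulfotransferases and kinases modify them.

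Library totals ran from 25991007 to 32323393 counts, and all 121 members passed the filter on low counts among 18563 genes tested. TERF2, which encodes TRF2, had 53.3 to 59.2 CPM in cycling cells and 289 to 307 CPM in the senescent DMSO 6 h libraries, with the expressed mutant included wherever its reads map to the gene. TERF2 was lower with GNF-7 too, with means of 300 CPM with DMSO and 234 CPM with GNF-7 at 6 h (log2 fold change -0.37, adjusted p = 7.34e-12, edgeR) and 213 and 130 CPM at 24 h. TERF2 thus shares with most members the lower level with GNF-7, though its 24 h ratio of 0.613 lay outside the limit of 0.6. With DMSO alone it differed from them: its mean was 300 CPM at 6 h and 213 CPM at 24 h. The members' median ratio of DMSO 24 h to DMSO 6 h was 0.99. The part of TERF2 in the members' changes was not tested. Of 10 mesenchymal markers, 9 had at least 1 CPM in every library, while 8 of 10 epithelial, 5 of 6 leukocyte and 3 of 4 endothelial markers stayed under 1 CPM in every library. Mitochondrial genes took a mean of 4.32% of counts in cycling cells, 11.7% and 14.1% with DMSO and GNF-7 at 6 h, and 16.9% and 23.3% with DMSO and GNF-7 at 24 h. This share moves with the groups that chose the members, and since CPM divides by the library total it lowers the CPM of every other gene. Counted on the total outside mitochondrial genes, the same rule gives 131 genes, of which 87 are among the 121.

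As a share of the counts outside mitochondrial genes, the members together made up 0.965% ± 0.0053 in cycling cells and 1.93% ± 0.0682 in senescent cells with DMSO for 6 h (SD, n = 3). They made up 2.10% ± 0.082 with DMSO for 24 h and 0.917% ± 0.0083 with GNF-7 for 24 h, which restates the choice. In the libraries that did not enter the choice, the share was 1.93% ± 0.0682 with DMSO and 1.61% ± 0.0559 with GNF-7 at 6 h. SPARC and FN1 alone supplied 28.5% of the members' CPM in the DMSO 24 h group.

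**Figure D1:**
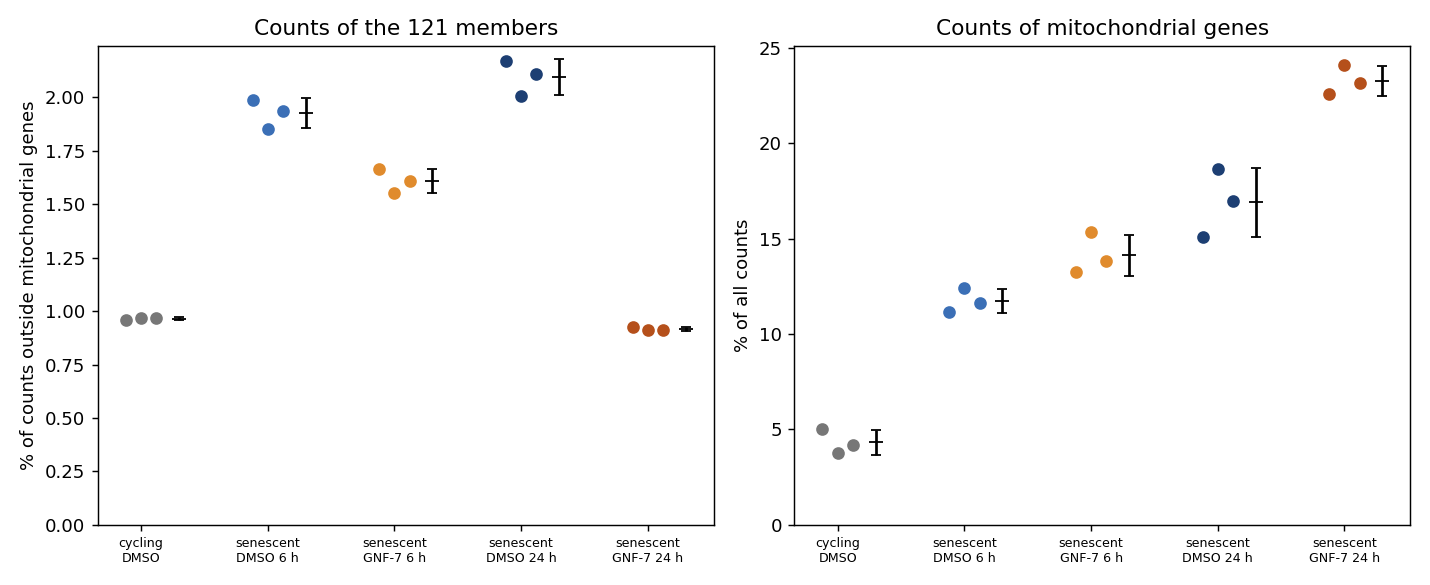
Summed share of the 121 members among counts outside mitochondrial genes (left, %) and share of mitochondrial genes among all counts (right, %), with 1 point per library in each of the 5 groups. The members' share at 6 h is lower with GNF-7 (mean 1.61%) than with DMSO (mean 1.93%), while the mitochondrial share is higher with GNF-7 at both times.

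At 6 h, 94 of the 121 members were lower with GNF-7, 8 were higher and 19 had no call (edgeR's quasi-likelihood test, Benjamini-Hochberg adjusted p under 0.05 over 18563 genes). The share of members called lower was 77.7%, against 21.4% of all genes tested and 20.5% of the other senescence-raised coding genes. The share called higher was 6.61%, against 17.9% of all genes and 30.3% of the other senescence-raised genes. The members' median log2 fold change was -0.32, beside 0.01 for all genes and 0.05 for the other senescence-raised genes, and single members ran from -1.27 to 0.62. Of the 121 members, 22 were called lower by at least 1.5-fold and 6 by at least 2-fold, beside 458 (2.47%) and 105 (0.566%) of the 18563 genes tested. In CPM, all 3 GNF-7 libraries lay under all 3 DMSO libraries in 89 members (73.6%), beside 23.9% of all genes, lay over them in 10, beside 23.7% of all genes, and overlapped them in 22. The mitochondrial share differed between these libraries too, and with mitochondrial genes left out before scaling the counts were again 94 lower and 8 higher. In bulk RNA, fewer cells with a transcript and less of it per cell cannot be told apart.

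The vehicle libraries place these levels. With DMSO for 6 h, 110 members (90.9%) had a mean at least 1.5 times that of cycling cells, beside 34.6% of all genes; the cycling libraries took part in the choice, so this is a description. The median ratio of DMSO 24 h to DMSO 6 h was 0.99, with a range of 0.59 to 1.82. CA9, FAM20C, SSBP2 and ITGA4 were the 4 members in which the 3 DMSO 6 h libraries did not all lie above the cycling libraries. This separation was not counted over all genes, so nothing is read from the number. After 24 h of GNF-7, 54 members had all 3 libraries below the 3 cycling libraries, 38 had all above, and 29 overlapped. Over all genes tested, 36.4% lay all below and 44.6% all above; both groups of libraries took part in the choice, so nothing is read from the members' counts. The ratio of GNF-7 24 h to cycling ran from 0.346 for SPARC to 11.8 for PCDHA1, with a median of 0.945. These counts and ratios are in CPM of all counts. Mitochondrial genes took 4.32% of these in cycling cells and 23.3% with GNF-7 for 24 h. The larger share lowers the members' CPM with GNF-7 against cycling cells, here and for the single members below.

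**Figure D2:**
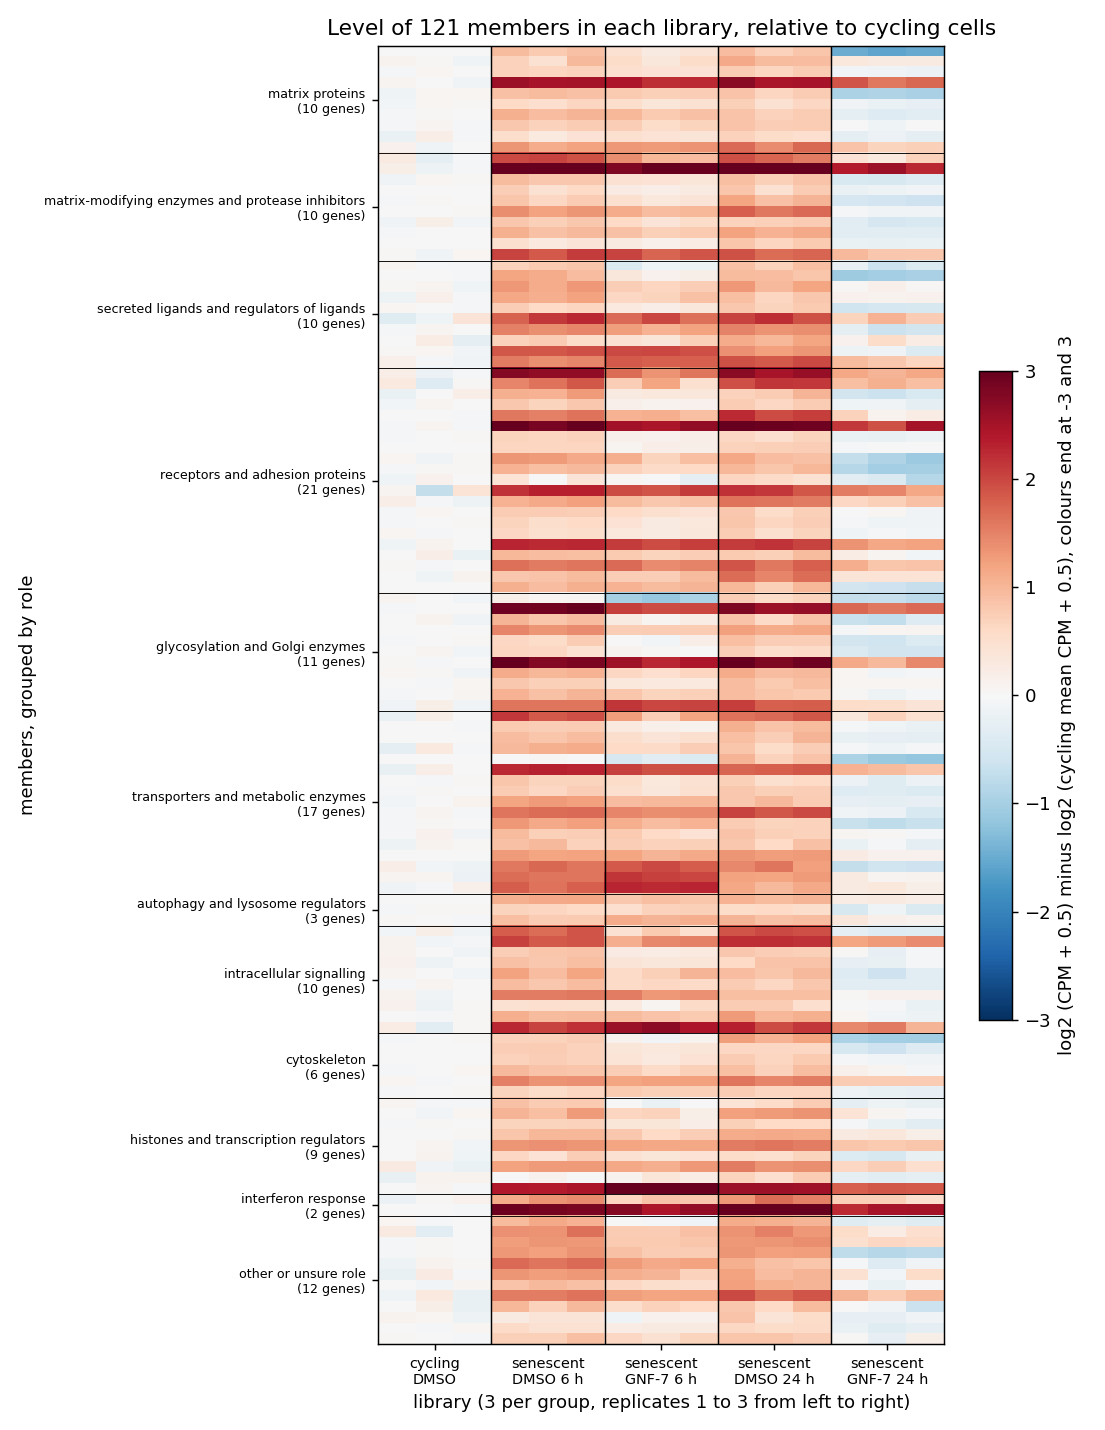
Level of each of the 121 members (rows, grouped by role) in each of the 15 libraries (columns), as log2(CPM + 0.5) minus log2 of the cycling mean + 0.5. The rows are high in both DMSO groups of senescent cells and return towards or below the cycling level with GNF-7 at 24 h, the contrast that chose the members, while the 6 h GNF-7 columns lie mostly between. CPM here includes mitochondrial counts, and their larger share with GNF-7 at 24 h lowers the members against cycling cells.

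Promoter stretches are shown here for members that carry a motif bound by stress or growth responsive transcription factors, since the members were chosen for moving together. The letters come from RefSeq (GRCh38.p14), read 5′ to 3′ on the gene's strand, and capitals mark the motif. RefSeq promoters of 300 bases, from 250 before to 50 after the start, were found for 102 members. The AP-1 motif TGANTCA, bound by FOS and JUN family proteins, was in 14 of these (13.7%), beside 7.7% of all promoters in the table and 5.8% of those of coding genes. CPA4 has 2 matches, starting 48 and 15 bases before the RefSeq start. The stretches lie at chr7:130293086-130293160 (plus strand, CPA4), chr9:35673824-35673884 (plus, CA9), chr6:134052689-134052749 (minus, SLC2A12), chr17:39687845-39687905 (plus, ERBB2) and chr3:16174433-16174493 (plus, GALNT15).
CPA4: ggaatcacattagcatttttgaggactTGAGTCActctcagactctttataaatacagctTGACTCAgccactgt
CA9: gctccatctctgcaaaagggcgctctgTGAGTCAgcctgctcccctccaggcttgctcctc
SLC2A12: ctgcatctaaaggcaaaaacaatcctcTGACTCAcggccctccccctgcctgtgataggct
ERBB2: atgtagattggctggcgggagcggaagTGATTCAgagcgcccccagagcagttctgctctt
GALNT15: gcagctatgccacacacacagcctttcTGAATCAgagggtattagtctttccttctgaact

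The same motif stands in members that moved in different directions at 6 h: CPA4, CA9, SLC2A12 and ERBB2 were called lower, and GALNT15 was called higher. Of the 14 members with AP-1 letters, 10 were called lower, 1 higher and 3 had no call. Of the matched members without them, 70 were called lower, 6 higher and 12 had no call. The cyclic AMP response element TGACGTCA was in 3 members (2.9%), FN1, PDE7B and TUBB2A, beside 1.8% of all promoters and 2.6% of those of coding genes. It is shown for FN1 at chr2:215436217-215436278 (minus strand) and PDE7B at chr6:135851519-135851580 (plus strand), which differ at 6 h: FN1 was called lower and PDE7B, with a value above 0, was not called.
FN1: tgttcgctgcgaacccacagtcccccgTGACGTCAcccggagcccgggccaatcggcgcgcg
PDE7B: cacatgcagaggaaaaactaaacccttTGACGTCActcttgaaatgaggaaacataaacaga

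The other motifs, all searched on both strands, are given as the share of the members' promoters, of all promoters and of those of coding genes. GGAATG, bound by TEAD factors, was in 11.8%, 14.0% and 11.7%. CAGACA, a SMAD element, was in 16.7%, 16.9% and 14.5%. TATAAA, the TATA box, was in 15.7%, 11.5% and 9.6%, and the GC box CCCGCCC in 42.2%, 33.1% and 44.4%. The members thus lay above all promoters and below coding promoters for the GC box. TGATGCAA, of the kind bound by ATF4, was in 2 members, ARID5B and SLC1A3 (2.0%, beside 0.9% and 0.7%), and TTTCCCGC, bound by E2F factors, in 1 member (1.0%, beside 1.6% and 2.2%). A match is a run of letters, not a shown binding site.

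Among 10 matrix proteins, 7 were called lower at 6 h, none higher and 3 had no call, with a median log2 fold change of -0.16. This count and those of the classes below stand beside 77.7% of all 121 members called lower. The classes were not compared by a test. SPARC, a collagen-binding matrix protein (chr5:151661096-151687165, minus strand, GRCh38), was the most abundant member per length, with 650.0 CPM per kilobase of exon in the DMSO 24 h group. Its 3 cycling libraries had 1750, 1777 and 1798 CPM. With DMSO it had 3412, 3054 and 3284 CPM at 6 h and 3389, 2879 and 3152 CPM at 24 h. With GNF-7 it had 2428, 2126 and 2305 CPM at 6 h and 631, 592 and 619 CPM at 24 h. The 6 h groups did not overlap, and the 24 h GNF-7 libraries lay below every cycling library. The 6 h difference was -0.52 on the log2 scale (SE 0.0514, adjusted p = 7.05e-08, edgeR).

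Fibronectin, FN1, the matrix protein that integrins bind, had 2225, 2041 and 2163 CPM with DMSO and 2141, 1844 and 1985 CPM with GNF-7 at 6 h. The 6 h groups overlapped, and the log2 difference was -0.12 (SE 0.0422, adjusted p = 0.0234, edgeR). At 24 h it had 1924, 1719 and 1826 CPM with DMSO and 876, 817 and 850 CPM with GNF-7, against 1037, 1090 and 1086 CPM in cycling cells. FBN1, which builds microfibrils, had a similar 6 h value of -0.12 (adjusted p = 0.028, edgeR). The calls of FN1 and FBN1 were lost, with values from -0.06 to -0.12, without replicate 1 or 3 of DMSO 6 h or replicate 2 of GNF-7 6 h, and that of FN1 also without replicate 3 of GNF-7 6 h. Both were also lost with a filter at a mean of 5 CPM (-0.07 each) and in a fit of the 6 h groups alone (-0.11 each), and that of FBN1 with total-count scaling (-0.11) and DESeq2 (-0.11).

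TGFBI, a secreted protein named for its induction by TGF-beta, had a 6 h log2 fold change of -0.18 (adjusted p = 0.00803, edgeR), and without replicate 2 of GNF-7 6 h it was -0.15 and not called, as with a filter at a mean of 5 CPM (-0.13). At 24 h TGFBI was at 0.30 of the DMSO mean, the second lowest ratio of the matrix proteins after SPARC. LAMA4, a laminin chain, and EDIL3, an integrin ligand, fell by 0.23 each at 6 h. ITGBL1, which resembles the integrin beta chains, fell by 0.14. OLFML3 (-0.27), SRPX2 (-0.01) and MATN2 (0.09) had no call.

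Enzymes that cross-link, hydroxylate or cut the matrix, with protease inhibitors, made up 10 members. Of these, 9 were called lower and 1 had no call at 6 h, with a median of -0.34. The collagen cross-linking enzymes differed in size at 6 h. PLOD2, a lysyl hydroxylase, had 664, 571 and 635 CPM with DMSO and 518, 461 and 484 CPM with GNF-7, and its log2 fold change was -0.37 (SE 0.0748, adjusted p = 0.00188, edgeR). At 24 h PLOD2 had 848, 689 and 756 CPM with DMSO and 264, 251 and 243 CPM with GNF-7, below the 356 to 385 CPM of cycling cells. LOXL3, a lysyl oxidase, fell by 0.46 and its relative LOXL2 by 0.18. The hydroxylase P3H2 fell by 0.28. CPA4, a carboxypeptidase whose promoter stretch holds 2 AP-1 matches, fell by 0.32; its 24 h mean was 0.287 of that with DMSO. The metalloprotease ADAMTS14, at 14.1 times its cycling level in the DMSO 24 h group, fell by 0.49 at 6 h. RECK, a membrane inhibitor of metalloproteases, fell by 0.39, ADAM21 by 0.95, and SERPINB7 was not called (-0.12).

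**Figure D3:**
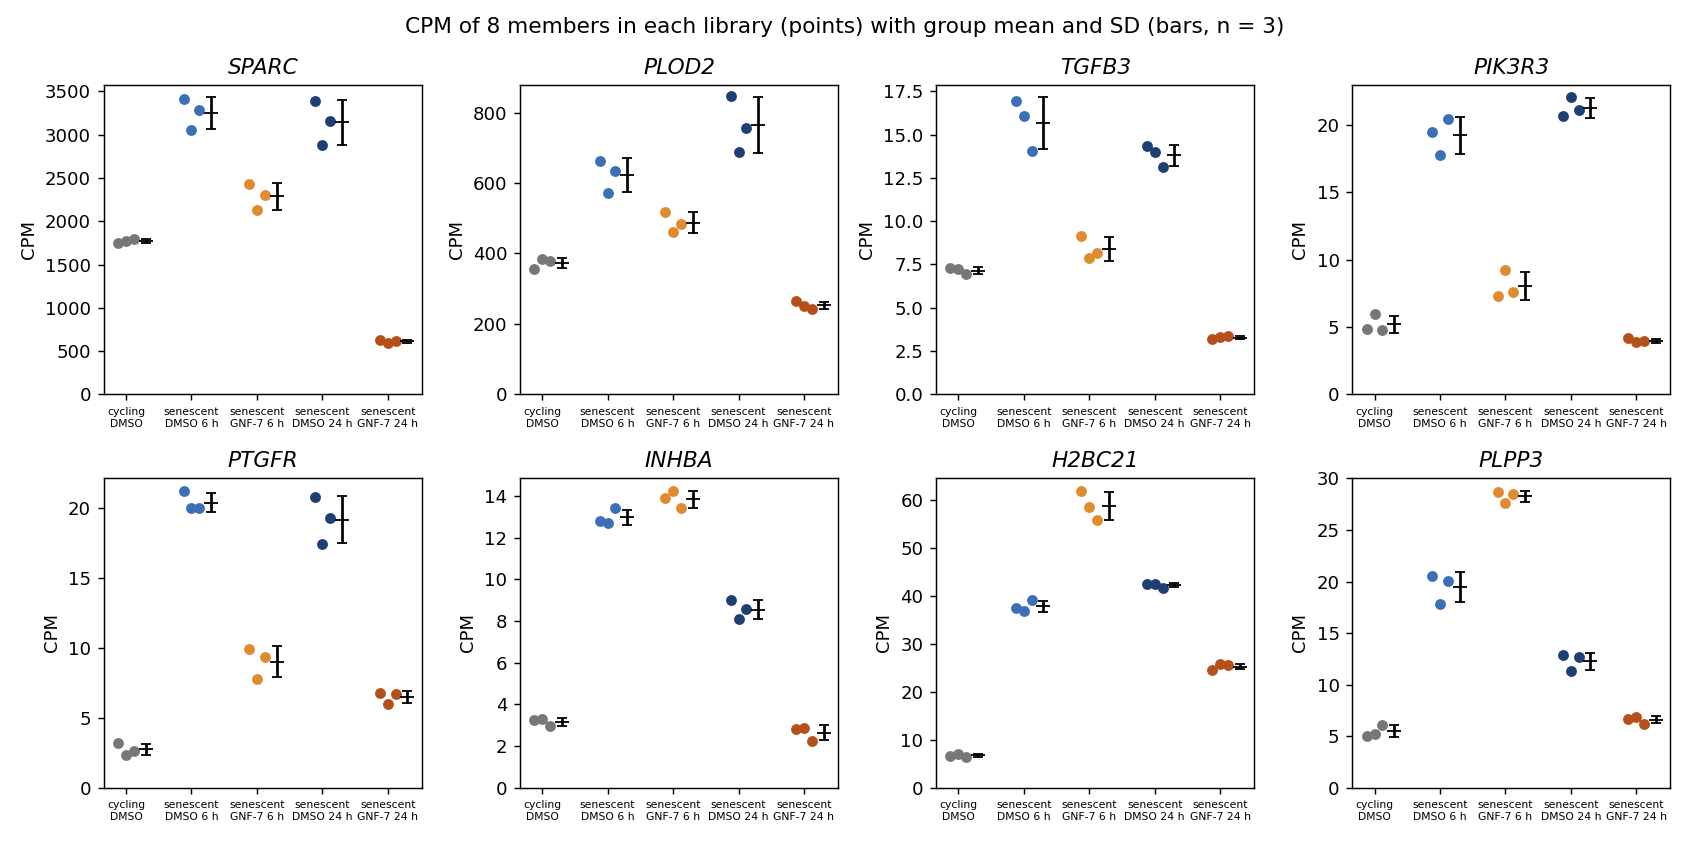
CPM of SPARC, PLOD2, TGFB3, PIK3R3, PTGFR, INHBA, H2BC21 and PLPP3 in each library (points) of the 5 groups, with the group mean and SD (bars, n = 3) on axes that start at 0. For SPARC, PLOD2, TGFB3, PIK3R3 and PTGFR the GNF-7 6 h points lie under the DMSO 6 h points, and for H2BC21 and PLPP3 they lie over them.

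Of 10 secreted ligands and regulators of ligands, 6 were called lower, 1 higher and 3 not called. TGFB3, a TGF-beta ligand, had 16.9, 16.1 and 14.0 CPM with DMSO and 9.17, 7.88 and 8.17 CPM with GNF-7 at 6 h, and its log2 fold change was -0.91 (SE 0.104, adjusted p = 6.38e-11, edgeR). At 24 h it had 14.3, 14.0 and 13.1 CPM with DMSO and 3.17, 3.29 and 3.37 CPM with GNF-7, under the 6.93 to 7.27 CPM of cycling cells. No GNF-7 library of TGFB3 reached a DMSO library at either time.

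INHBA, the subunit of activin A and like TGFB3 a ligand of this superfamily, did not follow it at 6 h. It had 12.8, 12.7 and 13.4 CPM with DMSO and 13.9, 14.2 and 13.43 CPM with GNF-7, against a highest DMSO library of 13.41 CPM, and its log2 fold change was 0.08 (SE 0.105, adjusted p = 0.581, edgeR). By 24 h INHBA was at 9.0, 8.09 and 8.58 CPM with DMSO and 2.81, 2.87 and 2.26 CPM with GNF-7. The difference between TGFB3 and INHBA at 6 h was not tested.

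TNFSF9, the ligand of the T cell receptor protein CD137, had 25.1, 26.9 and 27.4 CPM with DMSO and 11.2, 13.9 and 13.8 CPM with GNF-7 at 6 h. This was a log2 fold change of -1.04 (SE 0.0878, adjusted p = 1.96e-15, edgeR), and the GNF-7 libraries were all below the cycling libraries, which had 14.6 to 16.3 CPM. BDNF, a neurotrophin, fell by 0.55, and GAS6, the ligand of the AXL family of receptors, by 0.40. SEMA3C, a secreted semaphorin, fell by 0.29, and BMPER, which binds bone morphogenetic proteins, by 0.47. IFNE (-0.30) and PDGFRL (-0.17) had no call. SCG2, a granin of secretory vesicles, was the one called higher, at 0.33 (adjusted p = 0.000341, edgeR).

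Receptors and adhesion proteins were the largest class, with 17 of 21 called lower at 6 h, none higher and 4 not called (median -0.37). PTGFR, the receptor of prostaglandin F, had 3.19, 2.36 and 2.63 CPM in cycling cells and 21.2, 19.96 and 19.97 CPM with DMSO at 6 h. With GNF-7 at 6 h it had 9.89, 7.77 and 9.35 CPM, and its log2 fold change was -1.19 (SE 0.101, adjusted p = 1.58e-15, edgeR). PTGFR had 20.7, 17.4 and 19.3 CPM with DMSO and 6.77, 6.00 and 6.67 CPM with GNF-7 at 24 h, which remained above the cycling libraries.

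TGFBR2, the type II receptor of TGF-beta, had 495, 451 and 472 CPM with DMSO and 425, 380 and 388 CPM with GNF-7 at 6 h, and its log2 fold change was -0.26 (SE 0.0401, adjusted p = 3.68e-07, edgeR). At 24 h it had 558, 491 and 526 CPM with DMSO and 307, 288 and 293 CPM with GNF-7, beside 305, 314 and 319 CPM in cycling cells. ERBB2, a receptor tyrosine kinase, had 108, 106 and 110 CPM with DMSO and 75.7, 73.4 and 77.8 CPM with GNF-7 at 6 h. ERBB2 fell by 0.52 on the log2 scale (SE 0.0445, adjusted p = 1.85e-15, edgeR), with no overlap between the groups.

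Adhesion members called lower at 6 h differed in the size of the change. The cadherin CDH11 had 397, 361 and 383 CPM with DMSO and 310, 286 and 293 CPM with GNF-7 at 6 h, and its log2 fold change was -0.37 (adjusted p = 4.44e-10, edgeR). The giant cadherin FAT4 also fell by 0.38, and the integrin chains ITGB8 and ITGA4 by 0.59 and 0.37. The call of ITGA4 was lost without replicate 1 or 3 of DMSO 6 h (-0.29 and -0.31) or without replicate 3 of GNF-7 6 h (-0.27). The tetraspanin CD151 fell by 0.24 and the synaptic adhesion protein NLGN2 by 0.49. The clustered protocadherin PCDHA1 fell by 0.56 and PCDHB5, of a neighbouring cluster, had a value of -0.34 with no call. GABRE, a GABA receptor subunit, fell by 0.93, ULBP2, a ligand of the natural killer cell receptor NKG2D, by 0.65, and MR1, which presents microbial metabolites to T cells, by 0.23. LYPD1 (-0.03), F2RL2 (-0.08) and VSIR (-0.07) had no call at 6 h although at 24 h they were at 0.345, 0.557 and 0.418 of DMSO.

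Enzymes of glycosylation and the Golgi had the most negative median of the 12 role classes, -0.55, with 10 of 11 called lower and 1 higher. FAM20C, a Golgi kinase of secreted proteins, had 110, 102 and 103 CPM with DMSO and 48.5, 43.8 and 50.4 CPM with GNF-7 at 6 h. This log2 fold change of -1.15 had an SE of 0.0507 (adjusted p = 2.08e-27, edgeR). FAM20C had 103, 97.6 and 92.0 CPM in cycling cells, so it was near the cycling level with DMSO at 6 h and at 164, 143 and 155 CPM with DMSO at 24 h. With GNF-7 for 24 h it had 59.3, 60.1 and 56.9 CPM. The GNF-7 libraries were thus below the cycling libraries at both times.

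Several of these enzymes build chondroitin and dermatan sulfate, the sugar chains of matrix proteoglycans. DSEL, an epimerase of dermatan sulfate, had 70.0, 69.5 and 73.7 CPM with DMSO and 39.0, 36.0 and 37.2 CPM with GNF-7 at 6 h, and its log2 fold change was -0.94 (SE 0.0561, adjusted p = 4.28e-22, edgeR). In cycling cells DSEL had 8.73 to 9.02 CPM, so the GNF-7 libraries stayed above them. CHPF2, a chondroitin polymerizing factor, fell by 0.66 and the sulfotransferase CHST15 by 0.55. Enzymes of protein glycans fell as well: GXYLT2, which extends sugars on Notch-type repeats, by 0.63, MAN1A1, a mannosidase, by 0.48, POMGNT1, which acts on O-mannose, by 0.46, and GNPTAB, which tags lysosomal enzymes, by 0.25. The less characterised members of this class, MYORG and GASK1B, fell by 0.76 and 0.50. GALNT15, which starts mucin-type sugar chains, had 13.8, 13.7 and 13.7 CPM with DMSO and 20.1, 18.2 and 18.7 CPM with GNF-7 at 6 h, a rise of 0.46 (adjusted p = 6.32e-05, edgeR).

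**Figure D4:**
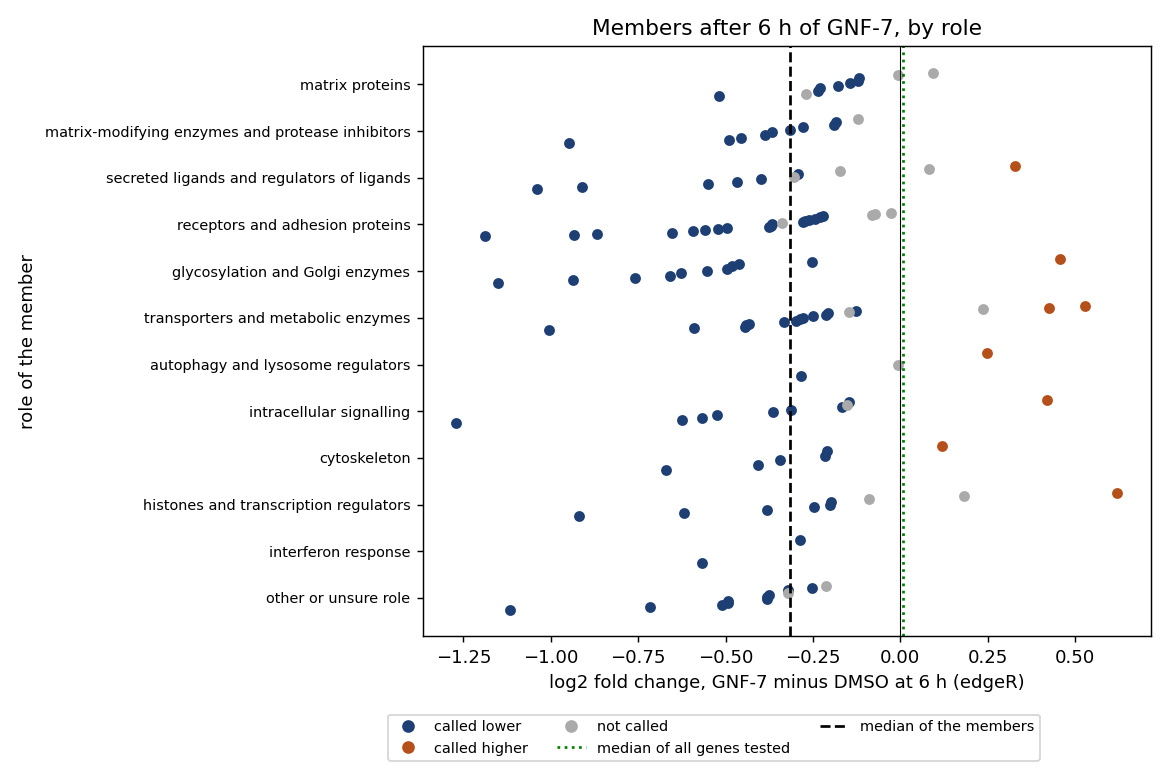
log2 fold change of GNF-7 minus DMSO at 6 h (edgeR) for each member (points), arranged by role, with colours for called lower, called higher and not called. Most points lie left of 0 in every class, and the 8 called higher are spread over 7 of the classes.

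Among 10 intracellular signalling members, 8 were called lower, 1 higher and 1 not called. PIK3R3, a regulatory subunit of phosphoinositide 3-kinase (chr1:46040140-46133036, minus strand), had the lowest value of all members at both times. It had 4.85, 5.93 and 4.80 CPM in cycling cells. With DMSO it had 19.5, 17.7 and 20.5 CPM at 6 h and 20.6, 22.1 and 21.1 CPM at 24 h. With GNF-7 it had 7.29, 9.24 and 7.60 CPM at 6 h and 4.16, 3.86 and 3.96 CPM at 24 h. The 6 h log2 fold change was -1.27 (SE 0.102, adjusted p = 1.9e-16, edgeR).

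PIK3IP1, an inhibitor of the same kinase, moved the other way at 6 h, with 0.42 (SE 0.140, adjusted p = 0.0122, edgeR), while at 24 h it was at 0.545 of DMSO. The kinases PIM2, TNIK and NEK10 fell by 0.57, 0.31 and 0.63 at 6 h. IRAK2, a kinase of interleukin-1 and Toll-like receptor signalling, fell by 0.17 and CARD6, a caspase recruitment domain protein, by 0.52. PLEKHA7, of cell junctions, fell by 0.36, and SYTL2, of vesicle transport, by 0.15. ARL15 (-0.15) was not called.

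Of 17 transporters and metabolic enzymes, 13 were called lower, 2 higher and 2 not called. CA9, the hypoxia-induced carbonic anhydrase, had 18.7, 19.4 and 19.1 CPM with DMSO at 6 h, close to its level in cycling cells. With GNF-7 at 6 h it had 13.5, 15.1 and 14.1 CPM, and its log2 fold change was -0.43 (adjusted p = 1.71e-05, edgeR). CA9 had 38.7, 30.9 and 34.4 CPM with DMSO and 9.55, 8.43 and 8.17 CPM with GNF-7 at 24 h, so with DMSO it stood above the cycling libraries at 24 h and not at 6 h. SLC2A12, a glucose transporter, fell by 0.25 at 6 h, from 24.9, 26.5 and 26.6 CPM to 22.5, 21.8 and 21.8 CPM, and at 24 h had 7.30, 6.93 and 5.62 CPM against 33.8, 30.0 and 32.7 CPM with DMSO.

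LIPH, a lipase that makes lysophosphatidic acid, fell by 1.00, while PLPP3, a phosphatase that removes it, was raised. PLPP3 had 20.5, 17.8 and 20.01 CPM with DMSO and 28.7, 27.7 and 28.5 CPM with GNF-7 at 6 h, and its log2 fold change was 0.53 (SE 0.0836, adjusted p = 3.82e-07, edgeR). At 24 h PLPP3 had 12.8, 11.3 and 12.6 CPM with DMSO and 6.71, 6.90 and 6.21 CPM with GNF-7. PGM2L1, a sugar phosphate enzyme, rose by 0.43 at 6 h (adjusted p = 2.57e-07, edgeR). PDE7B, a phosphodiesterase of cyclic AMP, had 11.4, 12.6 and 11.6 CPM with DMSO and 13.6, 15.2 and 13.6 CPM with GNF-7 at 6 h. The groups of PDE7B did not overlap, but it was not called (0.24, SE 0.111, adjusted p = 0.0826, edgeR), and at 24 h it was at 0.200 of DMSO. PDP1, which activates pyruvate dehydrogenase, fell by 0.59. Transporters that fell include SLC43A2, of large neutral amino acids, by 0.33 and SLC1A3, of glutamate, by 0.28.

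Cytoskeletal members gave 5 lower and 1 higher of 6. TUBA1A, an alpha-tubulin, had 318, 318 and 328 CPM with DMSO and 216, 186 and 209 CPM with GNF-7 at 6 h, and its log2 fold change was -0.67 (SE 0.0433, adjusted p = 4.29e-18, edgeR). At 24 h TUBA1A had 466, 403 and 454 CPM with DMSO and 101, 96.9 and 94.6 CPM with GNF-7. SYNPO, an actin-bundling protein, fell by 0.41, MYL9, a myosin light chain, by 0.34, TUBB2A by 0.22 and gelsolin, GSN, by 0.21. LIMA1, an actin cross-linker, rose by 0.12 (adjusted p = 0.0118, edgeR).

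Of 9 histones and transcription regulators, 6 were called lower, 1 higher and 2 not called. H2BC21, a histone H2B gene (chr1:149884459-149886652, minus strand), was the most raised member at 6 h, with 37.5, 36.8 and 39.1 CPM with DMSO and 61.7, 58.3 and 55.8 CPM with GNF-7. Its log2 fold change was 0.62 (SE 0.0575, adjusted p = 4.03e-14, edgeR). At 24 h H2BC21 had 42.3, 42.4 and 41.7 CPM with DMSO and 24.5, 25.7 and 25.5 CPM with GNF-7, still above the 6.40 to 7.08 CPM of cycling cells. The linker histone H1-2 fell by 0.20 at 6 h and H3C10 (-0.09) was not called, so the 3 histone members had different outcomes.

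SERTAD1, which binds E2F and cyclin-dependent kinase 4, fell by 0.92 at 6 h and was the 1 member whose ratio to DMSO was lower at 6 h than at 24 h. The corepressors TLE4 and NRIP1 fell by 0.38 and 0.25, ZNF608 by 0.62 and ARID5B by 0.20. SSBP2 (0.18) was not called. Of 3 regulators of autophagy and lysosomes, VMP1, needed for autophagosome formation, fell by 0.28, DRAM1, a p53-induced lysosomal protein, rose by 0.25, and TFEB, a transcription factor of lysosome genes, was not called (-0.01). Both interferon-induced members fell, IFI44 by 0.57 and IFI6 by 0.29. Among 12 members of other or uncertain role, 10 fell and 2 were not called. DNAJB4, a heat shock cochaperone, had 33.8, 38.3 and 36.2 CPM with DMSO and 17.3, 16.8 and 16.1 CPM with GNF-7 at 6 h, at or near the 16.6 to 18.0 CPM of cycling cells (log2 fold change -1.12, SE 0.0702, adjusted p = 3.81e-21, edgeR). GLIPR1 fell by 0.49.

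The sizes of the changes at 6 h and at 24 h were set side by side as a description. The rule kept only genes under its upper limit on the 24 h ratio. Such a cut can lower a correlation, so the values here do not show how closely the order at 6 h follows that at 24 h. Across the 121 genes, which are not independent replicates and of which the 24 h values were selected, Pearson's r between the log2 changes was 0.27 and Spearman's rho 0.29. Of the 10 members with the lowest ratio at 24 h, 9 were called lower at 6 h, PDE7B being the exception. This is near the share of all 121 members called lower at 6 h, 77.7%, so nothing is read from it. Ratios to DMSO were at most 0.5 in 60 members and at most 0.3 in 14 at 24 h. These ratios took part in the choice, so the counts are a description. They are in CPM of all counts, and the mitochondrial share of 16.9% with DMSO and 23.3% with GNF-7 at 24 h lowers them.

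**Figure D5:**
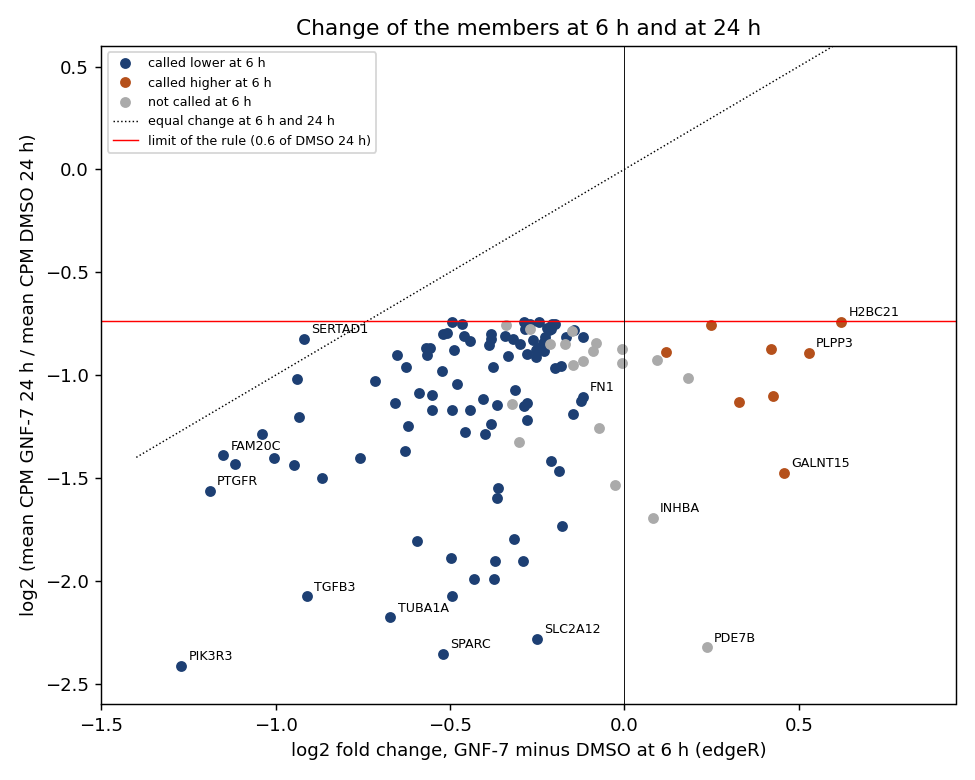
log2 fold change at 6 h (edgeR, horizontal axis) against log2 of the mean CPM ratio at 24 h (vertical axis), both GNF-7 against DMSO, with 1 point per member. All points lie under the 24 h limit that chose the members, and PDE7B and INHBA lie low at 24 h but right of 0 at 6 h.

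The pathways that the members belong to were also counted whole, over 15 gene lists, beside the background of 21.4% lower and 17.9% higher over all genes. Of 22 TGF-beta target genes tested, 13 were called lower and 5 higher at 6 h (median -0.18), and 6 of them are members (among them FN1, LOXL2, PLOD2, SPARC and TGFBI). Of 34 TGF-beta and BMP ligands, receptors and regulators, 13 were lower and 7 higher (median -0.04), with INHBA, TGFB3 and TGFBR2 as members. Among 24 actin and contractile genes, 17 were lower and 3 higher (median -0.21), with MYL9 and SYNPO as members.

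In the other lists with members, the share called lower was below that of the TGF-beta targets. Of 44 matrix glycoproteins and proteoglycans, 18 were lower and 6 higher (6 members), and of 37 remodelling enzymes and inhibitors, 17 were lower and 5 higher (5 members). Of 36 integrins and cadherin-type genes, 15 were lower and 4 higher (4 members). Of 55 receptor tyrosine kinases and ligands, 20 were lower and 9 higher (4 members), and of 32 axon guidance genes, 10 were lower and 5 higher (SEMA3C). Of 34 interferon response genes, 11 were lower and 6 higher (IFI44 and IFI6).

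The lists with no member ran in both directions. Of 36 p53 target genes, 1 was lower and 24 higher at 6 h (median 0.29). Of 23 YAP and TEAD target genes, 12 were lower and 4 higher, a larger share lower than in several lists with members. Of 32 genes of ERK pathway output and feedback, 14 were lower and 6 higher, and of 35 Wnt and Notch genes, 12 were lower and 9 higher. Of 29 lysosome genes, 10 were lower and 2 higher, and of 23 sterol synthesis genes, 4 were lower and 4 higher.

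The members are spread over 23 chromosomes, with 16 on chromosome 1. Their median gene span is 52442 bases, beside 33471 for 13404 other coding genes tested. Exons of 56 members overlap those of another gene in GENCODE release 29, on the same strand in 19 and on the other strand in 45, and the strand setting of the counting is not given in the sources used here. Values of LOXL2, CDH11, PIK3R3, DNAJB4, PLPP3, CHPF2 and PCDHA1 (same strand) and of SPARC, GAS6, TUBA1A, GLIPR1, TGFB3, CA9, SLC2A12, ITGB8, BDNF, ERBB2, DSEL, PDE7B and PGM2L1 (other strand) may therefore include reads of an overlapping gene. The histone, tubulin and protocadherin members have near-identical copies or shared exons, and ULBP2 has close relatives, so reads could be split among them.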

How the data were processed

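RNA from 15 HT-1080 libraries was sequenced with a stranded mRNA kit per the labels' protocols. The authors deposited raw counts per gene in 1 table. The submitters' processing notes name bcl2fastq 2.20.0.422, STAR 2.7.9a, featureCounts 1.5.1 and GRCh38; the strand setting and annotation release are not given in the sources used here. The table's 3 lines of 1 broken entry were left out, leaving 60670 genes. Library totals, 25991007 to 32323393, limit precision for members near 5 CPM most.

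CPM used the column totals. Coding status and coordinates came from GENCODE release 29. GNF-7 and DMSO at 6 h were compared with edgeR 4.0.16 (R 4.3.3; filterByExpr, TMM, robust quasi-likelihood test, all 15 libraries, Benjamini-Hochberg over 18563 genes, adjusted p under 0.05). The biological coefficient of variation was 4.637%. On simulated counts of this comparison over 17596 genes, 195 of 200 genes changed 2-fold were recovered, with 11 false calls. The simulation changed only these 200 genes, all by 2-fold. It does not cover changes as small as the members' median log2 fold change of -0.32. All 15 within-group pairs differed beyond sampling noise by chi-square.

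The members, lists and roles were chosen with earlier results of these data known. Roles were assigned by hand after the members were known. Named genes are the 10 most abundant, the 10 lowest at 24 h, the 6 lowest and 4 highest called at 6 h, members of the lists, those nearest the limits, and examples of each role; some of these are not reported here. Alternatives were total-count scaling, other filters, DESeq2 1.42.0, limma 3.58.1 with voom, the 6 h groups alone, a replicate block, each 6 h replicate left out, mitochondrial genes left out (added after seeing the data) and other limits of the rule.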

Additional observations from a re-analysis of the deposited data

Results flagged for a closer look

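In 10 members all 3 GNF-7 libraries lay above all 3 DMSO libraries at 6 h and below them at 24 h, in CPM. The 24 h direction was fixed by the choice of members, and the difference between the times was not tested. The ratio of the GNF-7 to the DMSO mean at 6 h was 1.55 for H2BC21, 1.45 for PLPP3, 1.39 for GALNT15, 1.36 for PGM2L1 and 1.35 for PIK3IP1. It was 1.27 for SCG2, 1.20 for DRAM1, 1.19 for PDE7B, 1.09 for LIMA1 and 1.07 for INHBA. Of these, edgeR called all but PDE7B and INHBA higher at 6 h. Over all genes tested, 23.7% had all 3 GNF-7 libraries above the DMSO libraries at 6 h, and 17.9% were called higher. With mitochondrial genes left out before scaling, 8 members were again called higher, and the log2 fold change was 0.63 for H2BC21, 0.53 for PLPP3, 0.46 for GALNT15, 0.43 for PGM2L1, 0.24 for PDE7B and 0.09 for INHBA.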

How the results depend on the processing

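The number of members follows the limits of the rule: 60 genes with a 24 h ratio of at most 0.5, 212 with at most 0.7, and 59 with at least 2 times the cycling level. Leaving out each library that the rule used gave 105 to 131 members. At 6 h, leaving out each replicate gave 79 to 94 members called lower, 6 to 8 called higher and medians of -0.33 to -0.29; the other alternatives gave 75 to 94 lower, 7 to 9 higher and medians of -0.34 to -0.24. The lowest count came from a filter at a mean of 5 CPM, which tested 112 members. DESeq2 called 87 lower and 8 higher. Same-numbered replicates of the 6 h groups did not deviate together (correlations 0.065, 0.10 and -0.013), so the numbers were not taken to pair the libraries; with a replicate block 94 were lower and 8 higher, with a median of -0.32. Single values were followed through the alternatives for 44 members, not for those named only as examples of a role or as near a limit. Among these 44, no direction reversed, and FBN1, FN1, TGFBI and ITGA4 lost their call in some alternatives. PDE7B gained a call under 3 alternatives, with values of 0.29, 0.23 and 0.25. Members outside the 44 lost calls too: without replicate 2 of GNF-7 6 h, 78 of the 94 members called lower kept that call. Depth limits members near 5 CPM most, and the members' 24 h values hold no independent check.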

Other observations

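The 5 genes that met the values of the rule and were left out by name differed widely at 6 h. CCL2, a monocyte chemokine, had a mean of 34.1 CPM with DMSO and 4.54 CPM with GNF-7 at 6 h, a log2 fold change of -2.92 (adjusted p = 3.19e-35, edgeR), larger in size than that of any member. At 24 h CCL2 had means of 41.5 and 0.782 CPM. MMP16, a membrane metalloprotease, and IGFBP6, which binds insulin-like growth factors, fell by 0.36 and 0.32 at 6 h. VCAN, a large proteoglycan (-0.12, adjusted p = 0.373, edgeR), and the collagen chain COL1A1 (-0.05, adjusted p = 0.778, edgeR) had no call.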
